A study of Mus musculus with 2 samples.

Results

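The peroxisome proliferator-activated receptors (PPARs), their partners the retinoid X receptors (RXRs) and a set of lipid genes that PPARs are known to control were followed in astrocytes of the dentate gyrus (DG). The set was chosen by gene symbol and held 10 genes, the receptors Pparg, Ppara, Ppard, Rxra, Rxrb and Rxrg and the lipid targets Angptl4, Plin2, Cd36 and Pdk4, out of 16302 genes in the joined expression tables. Of these 10 genes, 9 were listed in both tables, and 7 had at least 1 FPKM in one or both. The astrocytes were grown from the adult DG (age not stated for these cultures) of C57BL/6 mice (C57BL/6J in the study's methods) that were WT or lacked both copies of the β-arrestin 1 gene (β-arr1 KO), kept in medium with serum, and shaken to remove loosely attached cells before RNA was taken. RNA-seq was done on a single library per genotype, made from pooled cDNA, and expression was given in FPKM, the fragments of a gene relative to the length of its transcript and the size of the library. The deletion was systemic and not limited to astrocytes, and the KO mice were littermates of the WT mice or came from lines bred apart after backcrossing.

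PPARs are nuclear receptors that are switched on by fatty acids and their derivatives. Each binds DNA together with an RXR, which is itself a receptor for vitamin A derivatives, at a direct repeat of a hexamer with a single base between the copies (DR1). In astrocytes these receptors are known for the control of fatty acid oxidation and storage and for limiting inflammatory genes. β-arr1 is known from fat cells to bind PPARγ, the product of Pparg, and the comparison shows how RNA of the receptors and their targets differed between a WT and a β-arr1 KO culture.

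No genotype has a replicate library, so genotype was not tested and differences have no replicate check. The ratio of FPKM, β-arr1 KO vs. WT, was read against the limits of 3/2 and 2/3 used in the study. Its 95% interval (exact Clopper-Pearson) was computed from the fragments estimated behind each value and covers counting error only. The libraries had 9.54 M and 9.82 M mapped fragments by that estimate, and the median log2 ratio of genes listed in both was 0.02. Arrb1, the deleted gene, was at 7.62 FPKM in WT against 2.72 in KO, a ratio of 0.358. RNA of 4 Y chromosome genes was listed in the KO library, at 8.44 FPKM in sum, and not in the WT library, so that sex and genotype cannot be told apart in any value given here.

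The DR1 consensus was searched around the start of each gene, because it is the element through which the PPAR and RXR proteins act on their targets. The 5000 bases on either side of the start of the longest coding transcript were read from the NCBIM37 assembly, which is also called mm9, and AGGTCANAGGTCA was sought on either strand, allowing 2 mismatches or fewer among the 12 defined positions. The sequences below are those nearest to the consensus among the receptors and all of those found in introns or upstream of Angptl4, Plin2 and Pdk4, with the hexamers in capitals, 10 flanking bases on each side in lower case, and each written from the strand on which it matched.
Rxrb, 3926 bases upstream: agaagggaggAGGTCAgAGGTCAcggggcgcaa
Ppard, 2832 bases upstream: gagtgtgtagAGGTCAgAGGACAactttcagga
Angptl4, 2272 bases downstream in intron 3: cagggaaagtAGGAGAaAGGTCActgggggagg
Angptl4, 2614 bases upstream: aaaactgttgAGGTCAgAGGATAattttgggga
Plin2, 218 bases upstream: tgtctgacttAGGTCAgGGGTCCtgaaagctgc
Plin2, 1937 bases upstream: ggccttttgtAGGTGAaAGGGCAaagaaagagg
Plin2, 4971 bases upstream: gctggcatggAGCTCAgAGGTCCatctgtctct
Pdk4, 3842 bases upstream: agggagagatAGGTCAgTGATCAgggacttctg

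The Rxrb sequence, at chr17:34164825-34164837 on the plus strand, matched all 12 positions, and windows of this kind held such a site in 2.07% of 22342 protein-coding genes. The row of the neighbouring gene Slc39a7, from 34165211 to 34168635, lay between this sequence and the Rxrb start at 34168757. The Ppard sequence, at chr17:28366861-28366873 on the plus strand, had 1 mismatch, T11A counted from the first base of the consensus, and 18.7% of all genes had a site with at most 1 mismatch. The remaining sequences had 2 mismatches. Those of Angptl4 lie at chr17:33916242-33916254 (plus strand) and chr17:33921128-33921140 (minus strand), with mismatches T4A and C5G in the first and T11A and C12T in the second. Those of Plin2 lie at chr4:86316176-86316188 (plus strand, A8G and A13C), chr4:86317895-86317907 (minus strand, C5G and T11G) and chr4:86320929-86320941 (minus strand, G3C and A13C). That of Pdk4 lies at chr6:5450145-5450157 (plus strand, A8T and G10A). A site with 2 mismatches or fewer was found for 9 of the 10 genes and for 76.2% of all genes, so its presence does not set these genes apart. The single gene without one was Cd36, whose window lay around its most distant start, at 17394777 on chromosome 5. The other Cd36 transcripts start at 17355610 and 17341714, outside that window. A match is a description of the sequence, and no binding was measured.

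The 3 PPAR genes had very different levels, and their order was the same in both libraries. Ppard, the PPAR found in most tissues, was the highest, at 11.6 FPKM in WT against 11.5 in KO. Its ratio was 0.993, and about 337 and 344 fragments put the interval at 0.852 to 1.16. Ppard (NCBI gene 19015) lies on chromosome 17 from 28369699 to 28438414, on the plus strand. The 2 libraries did not differ in Ppard beyond counting error, and the interval lay inside the limits of 2/3 and 3/2.

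Pparg (NCBI gene 19016), which is needed for fat cell formation and also acts in macrophages, was next. Its level was 5.42 FPKM in WT against 4.44 in KO, with 44.3% and 39.7% of listed genes below it. The ratio was 0.820. About 87 and 74 fragments stood behind these values, so the interval was broad, from 0.593 to 1.13, and included 1. Pparg has a pair of coding transcripts in GENCODE on the plus strand of chromosome 6, one from 115311239 and a shorter one from 115372084, and the deposited value does not separate them. The KO row began at the first of these starts, while the WT row began upstream of it at 115310861.

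Ppara (NCBI gene 19013, on chromosome 15), the main PPAR of liver, was near the limit of detection. It was at 0.149 FPKM in WT against 0.145 in KO, an estimated 5 fragments in each library, and the interval of its ratio, 0.224 to 4.23, was too wide to show a difference. In sum, the PPAR genes reached 17.2 FPKM in WT against 16.1 in KO. Of that sum Ppard made up 67.5% in WT and 71.5% in KO, Pparg 31.6% and 27.6%, and Ppara 0.868% and 0.901%. Ppard was 2.14 times as high as Pparg in WT and 2.59 times in KO.

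Among the RXR genes, nearly all of the listed signal came from Rxra (NCBI gene 20181), the RXR found in most tissues. Rxra was at 18.4 FPKM in WT against 12.8 in KO, and the KO value was 30.3% lower. The ratio of 0.697 stayed just inside the lower limit. About 829 fragments in WT and 595 in KO gave bounds of 0.626 and 0.775, which leave out 1 and include 2/3. The Rxra row had the same bounds in both tables, from 27532721 to 27618839 on chromosome 2, and no other row overlapped it.

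Rxrg (NCBI gene 20183, on chromosome 1), the RXR of muscle and of parts of the brain, was at 0.534 FPKM in WT against 0.363 in KO. Its ratio of 0.680 was the lowest among the receptors, but with only about 10 and 7 fragments the interval ran from 0.220 to 1.98. With a pseudocount of 1 FPKM the ratio of Rxrg was 0.889. Rxra was 34.4 times as high as Rxrg in WT and 35.2 times in KO, ratios that carry the wide counting error of Rxrg.

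Rxrb was listed in neither table. This does not show that the gene was silent, since the same tables leave out genes that most cells use (Hadhb in WT, Gps2 and Carm1 in KO). GENCODE places the 11 transcripts of Rxrb between positions 34168757 and 34175338 of chromosome 17, plus strand. Its start is 121 bases from the end of the Slc39a7 row, a gene on the opposite strand that was at 117.7 FPKM in WT against 108.3 in KO. No row of another symbol covered the Rxrb locus. The listed RXR genes summed to 18.9 FPKM in WT against 13.2 in KO, which is 1.10 and 0.817 times the sum of the PPAR genes, and both sums lack Rxrb.

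**Figure D1:**
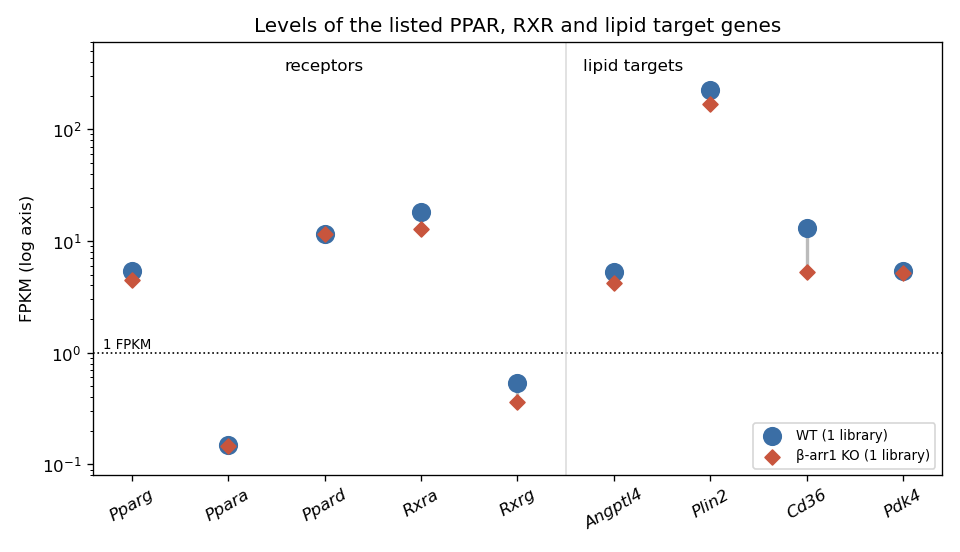
Level of each of the 9 listed genes in FPKM on a log axis, with the WT library as circles and the β-arr1 KO library as diamonds (1 library per genotype, no error bars). Plin2 stood far above the others, Ppara and Rxrg lay below 1 FPKM, and the gap between the libraries was widest for Cd36, at 13.2 and 5.23 FPKM.

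Cd36 (NCBI gene 12491), which encodes a scavenger receptor that also takes up fatty acids, differed most between the libraries. It was at 13.2 FPKM in WT against 5.23 in KO, so that the WT level was 2.52 times the KO level. The ratio was 0.397 and the log2 ratio -1.33. An estimated 428 fragments in WT and 175 in KO gave an interval of 0.331 to 0.474, which lay wholly below the limit of 2/3. In WT 65.6% of the listed genes had a lower value than Cd36, and in KO 43.0%. Its row had the same bounds in both tables, from 17287508 to 17394777 on the minus strand of chromosome 5, and no other row overlapped it. The ratio stayed between 0.390 and 0.439 when the libraries were rescaled or a pseudocount was added.

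Plin2 (NCBI gene 11520) encodes perilipin 2, a protein that coats lipid droplets in most cells that store fat. It was by far the most abundant gene of the set, at 225 FPKM in WT against 170 in KO, and ranked 208th and 298th among the listed genes. The KO value was 24.2% lower, a ratio of 0.758 that did not reach the limit of 2/3. With an estimated 3684 and 2873 fragments the interval was narrow, from 0.721 to 0.796, and left out both 1 and 2/3. Its row ran from 86302469 to 86315963 on chromosome 4 in both tables. Since the Cd36 level differed more, Plin2 was 17.0 times as high as Cd36 in WT and 32.5 times in KO.

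Angptl4 (NCBI gene 57875) encodes a secreted inhibitor of lipoprotein lipase, and its row spanned 33911845 to 33918520 of chromosome 17. It was at 5.32 FPKM in WT against 4.17 in KO, a ratio of 0.784. With about 146 and 118 fragments its interval reached from 0.610 to 1.01. Pdk4 (NCBI gene 27273) encodes a kinase that shuts off pyruvate dehydrogenase and so favours the use of fatty acids, and its row spanned 5433351 to 5446278 of chromosome 6. Pdk4 was at 5.41 FPKM in WT against 5.16 in KO. Its ratio of 0.953 had an interval of 0.766 to 1.19, inside the limits of 2/3 and 3/2. Thus the target with the largest difference, Cd36, and the target with the smallest, Pdk4, were at 13.2 and 5.41 FPKM in WT, but at nearly equal levels of 5.23 and 5.16 FPKM in KO.

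**Figure D2:**
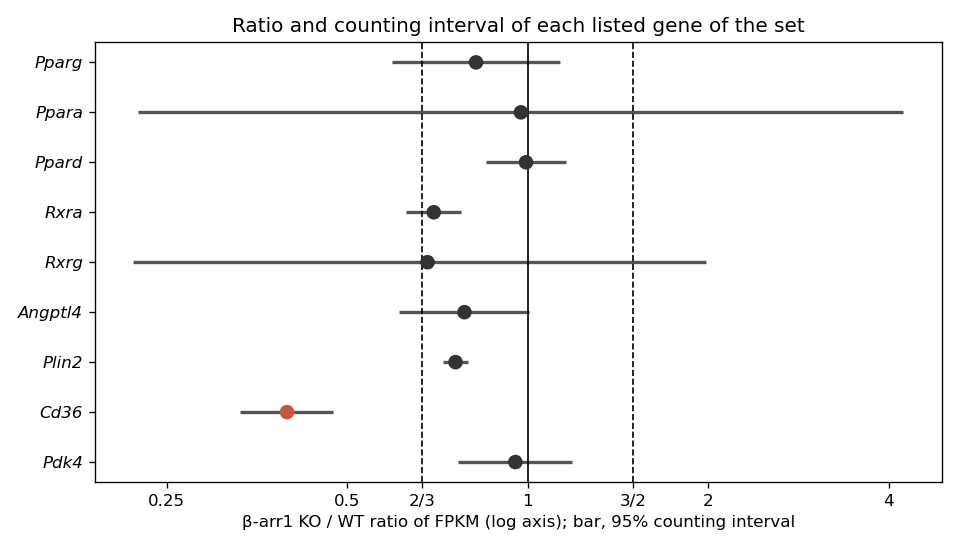
Ratio of FPKM, β-arr1 KO vs. WT, for the 9 listed genes on a log axis, with bars for the 95% counting interval and dashed lines at 2/3 and 3/2. Cd36 is the one gene past a limit, the intervals of Rxra and Plin2 lie below 1 while their ratios stay above 2/3 (the Rxra interval crosses 2/3), and those of Ppara and Rxrg are wide because few fragments were behind them.

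Over all genes, a ratio past either limit was found in 2256 of 12646 genes that had 1 FPKM or more in one or both libraries (17.8%). Above 3/2 were 9.56% of these genes, and 8.28% were below 2/3. Of the 7 genes of the set that reached this level 1 was past a limit, which is near that background. The background counts as past a limit 475 genes listed in 1 table only, whereas all 7 were listed in both tables. The study reported fewer changed genes with the same limits, out of a similar number analysed. With 1 FPKM or more required in both libraries, 1372 of 11622 genes were past a limit, and 1 of the 7 genes of the set. The ratio was below 1 in all 7, and in 47.0% of all genes analysed. The counting interval lay wholly below 1 for 3 of the 7, Rxra, Plin2 and Cd36, and for 18.5% of the 11834 genes for which it could be computed. The median ratio was 0.820 for the 3 receptors and 0.771 for the 4 targets analysed. The direction of each of the 9 listed genes was the same under 3 ways of rescaling the libraries and with pseudocounts of 0.1 and 1.

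**Figure D3:**
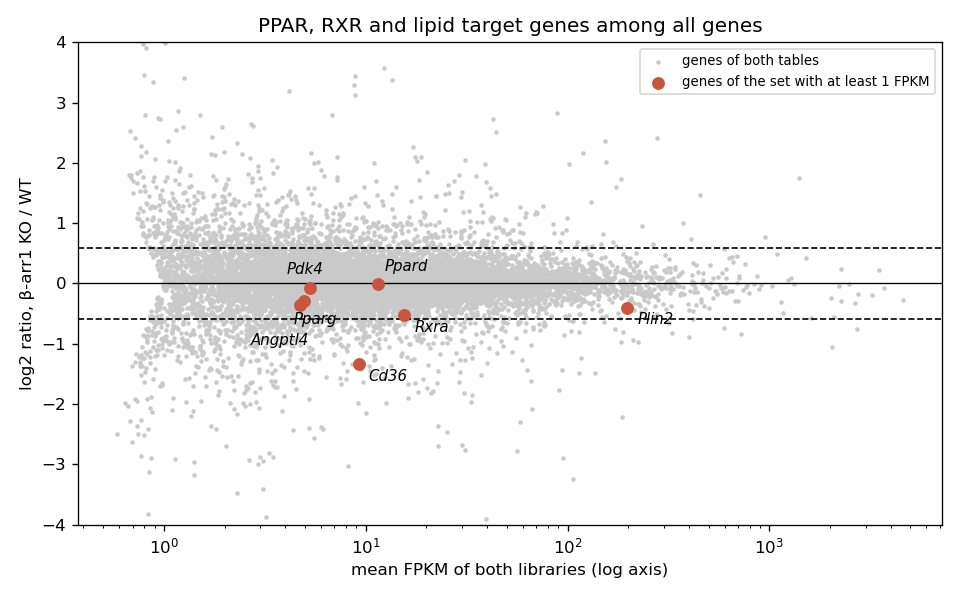
Log2 ratio of β-arr1 KO vs. WT against the mean FPKM of both libraries (log axis) for 12171 genes listed in both tables, of which 21 lie outside the plotted range. The 7 genes of the set with at least 1 FPKM are coloured, and among them Cd36 alone lies outside the dashed limits, at -1.33.

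The wider PPAR and RXR pathway, with genes that respond to hypoxia or glucocorticoids, was described with 11 lists of 153 genes in all. Past the limits were 20 of the 122 genes analysed (16.4%), 9 above and 11 below, a share close to that of all genes. Of these, 4 above and 1 below came from the hypoxia-responsive list, which is not specific to PPAR and RXR. Genes listed in 1 table only are counted as past a limit here too. Coactivators, which RXR and PPAR dimers recruit to switch genes on, differed in both directions. Med1, the Mediator subunit that docks nuclear receptors, was at 12.9 FPKM in WT against 6.33 in KO, a ratio of 0.493 (interval, 0.441 to 0.550). Ppargc1a, which encodes the coactivator PGC-1α and was named after its value was seen, was at 1.30 FPKM in WT against 2.93 in KO, a ratio of 2.26 (interval, 1.72 to 2.98). Ncoa7 was above 3/2 as well, at 3.10 and 5.01 FPKM, but its ratio of 1.62 was 1.47 with a pseudocount of 1. Carm1 was at 25.9 FPKM in WT but missing from the KO table, where a Smarca4 row overlapped its locus. The remaining 9 coactivators analysed lay within the limits, among them Ep300 at 12.03 and 12.50 FPKM.

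Of 8 corepressors, which hold these receptors silent, 7 lay within the limits. Hdac3, a histone deacetylase of corepressor complexes, was at 32.0 FPKM in WT against 28.2 in KO. Gps2 was at 14.7 FPKM in WT but missing from the KO table. Among 11 other nuclear receptors that pair with RXR, Nr1h2 (LXRβ) was at 31.9 and 28.5 FPKM and Thra at 26.3 and 26.6 FPKM. Nr1h4 alone was past a limit, at 1.43 FPKM in WT against 0.731 in KO, and the interval of its ratio (0.512) ran from 0.240 to 1.04. With a pseudocount of 1 the ratio of Nr1h4 was 0.713, inside the limits. The 8 sterol genes controlled by LXR and RXR were all within the limits. Apoe was at 834 FPKM in WT against 746 in KO and Scd2 at 132 and 127 FPKM.

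Like Cd36, the genes of fatty acid uptake, binding and activation act at the entry of fatty acids into the cell. Of 13 such genes, 3 were below 2/3 (8.28% of all genes) and none was above 3/2 (9.56% of all genes). All 3 encode fatty acid-binding proteins. Fabp4, the form of fat cells and macrophages and a known PPARγ target, was at 11.8 FPKM in WT against 4.30 in KO, a ratio of 0.365 (interval, 0.206 to 0.622). Fabp5 was at 64.3 FPKM in WT against 31.4 in KO, a ratio of 0.488 (interval, 0.451 to 0.528), and processed pseudogenes of Fabp5 can share its reads. That interval rests on 1881 and 945 fragments estimated with the longest transcript, and is too narrow if a shorter one was expressed. Fabp3 was also past the limit, at 3.46 and 1.91 FPKM, but only about 22 and 12 fragments gave an interval of 0.249 to 1.16, and rows of Zcchc17 overlapped its locus. Lpl, the lipase that Angptl4 inhibits, was within the limits at 54.8 FPKM in WT against 44.7 in KO. The ratio was below 1 in 10 of the 13 genes. Acsl4, Acsl5 and Acsl6 were higher in KO, at ratios of 1.229, 1.247 and 1.433, all within the limits. The median ratio of the list was 0.830.

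Fatty acid oxidation, the process that Pdk4 favours, had 25 genes analysed, and of these 22 lay within the limits, with a median ratio of 0.999 over those listed in both tables. Acads, the dehydrogenase for short chains, was at 846 FPKM in WT against 837 in KO, and Ucp2 at 98.1 and 108 FPKM. Acot1 (10.5 FPKM in WT, not listed in KO) and Hadhb (not listed in WT, 23.4 FPKM in KO) were each missing from 1 table, and in KO a row of the related gene Acot6 overlapped the Acot1 locus. Ehhadh, at 1.66 and 0.933 FPKM, had a ratio of 0.564 (interval, 0.334 to 0.933), which was 0.728 with a pseudocount of 1. Lipid droplet and lipolysis genes other than Plin2 had 10 of 12 within the limits. Plin3 was at 38.0 and 34.7 FPKM and Pnpla2, the main triglyceride lipase, at 26.9 and 24.1 FPKM. Cidea and G0s2 were above 3/2 on an estimated 12 to 24 fragments, and their intervals included 1. With a pseudocount of 1 their ratios were 1.43 and 1.45.

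Paralogs of the targets and enzymes of the same step were mostly alike in the libraries, with 8 of 9 within the limits. Pdha1, the pyruvate dehydrogenase subunit that Pdk4 phosphorylates, was at 70.2 and 74.8 FPKM, and Scarb2, a relative of Cd36, at 42.7 and 44.0 FPKM. The one exception was Pdp1, the phosphatase that reverses the action of Pdk4, at 10.4 FPKM in WT against 6.06 in KO, a ratio of 0.583 (interval, 0.495 to 0.686). Among 5 adipogenic genes none was past a limit, with Cebpd at 26.0 and 33.2 FPKM. Angptl4, Plin2 and Pdk4 are also known to respond to hypoxia or glucocorticoids. Of 12 hypoxia-responsive genes 4 were above 3/2 (9.56% of all genes), among them Pgk1 (57.2 and 113 FPKM), Egln3 (5.23 and 8.83 FPKM) and Vegfa (30.3 and 46.8 FPKM), and Ldha was within the limits at 323 and 342 FPKM. Car9 was at 9.89 FPKM in WT but missing from the KO table. The 6 glucocorticoid-responsive genes were within the limits, with Dusp1 at 93.2 and 118 FPKM and Sgk1 at 45.2 and 56.4 FPKM.

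**Figure D4:**
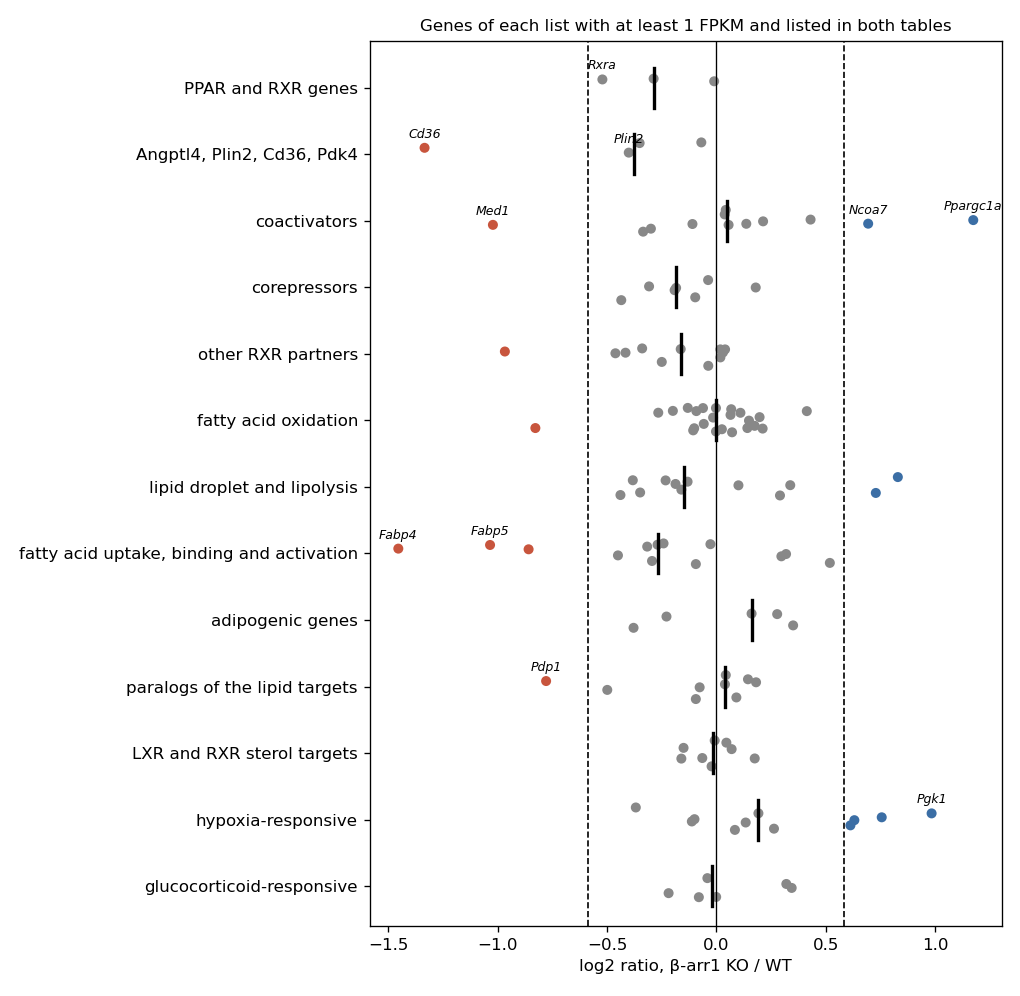
Log2 ratio of β-arr1 KO vs. WT for every gene of the receptor, target and pathway lists with at least 1 FPKM that was listed in both tables. Vertical bars are medians, dashed lines mark 2/3 and 3/2, and genes past them are red (below) or blue (above). Cd36, Fabp4 and Fabp5 lie farthest to the left, beside Med1, while fatty acid oxidation genes gather around 0.

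Cd36, Fabp4 and Pparg are also used by cells other than astrocytes, so markers of these cells were read beside them. Astrocyte markers were present in both libraries, and 4 of 10 were above 3/2 in KO (9.56% of all genes). One of the 4, Slc1a2, at 2.60 and 4.11 FPKM, had a ratio of 1.42 with a pseudocount of 1. Gfap was at 189 and 192 FPKM and Aqp4 at 7.05 and 13.5 FPKM. All 14 microglia markers were listed in both libraries, over a wide range of levels. The highest were Tyrobp, at 317 FPKM in WT against 219 in KO, and C1qc, at 278 and 208 FPKM, and the lowest were P2ry12, at 2.67 and 2.46 FPKM, and Tmem119, at 5.11 and 4.91 FPKM. Their summed level was 1660 FPKM in WT against 1254 in KO, a ratio of 0.755, and 13 of the 14 were lower in KO (47.0% of all genes). One of the 14, Cd68, was below 2/3 (8.28% of all genes), at 185 and 119 FPKM, while Cx3cr1 had a ratio of 1.05. The ratio of Plin2 (0.758) lay within the range of these markers, from 0.645 to 1.05, and the ratio of Cd36 (0.397) lay below all 14.

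Fibroblast markers were lower in KO by more. Their sum was 523 FPKM in WT against 278 in KO, a ratio of 0.533, with Col1a2 at 92.3 and 34.3 FPKM, Dcn at 6.11 and 0.831 FPKM and Lum at 0.660 FPKM in WT but not listed in KO. Pdgfra, on the same list, was higher in KO, at 3.12 and 6.03 FPKM. Endothelial markers lay on both sides. Cdh5 had a ratio of 0.507 at 31.8 and 16.1 FPKM, Pecam1 and Flt1 were above 3/2, at ratios of 1.72 and 1.71, and the list summed to 94.6 FPKM in WT against 93.8 in KO. The listed pericyte markers summed to 29.9 and 37.5 FPKM, most of it Cspg4, at 24.0 and 33.8 FPKM (a ratio of 1.41). Rgs5, on the same list, was below 2/3 at 5.83 and 3.58 FPKM (a ratio of 0.672, inside the limits, with a pseudocount of 1). Of 5 adipocyte markers only Plin1 was listed, at 0.060 FPKM in KO alone. Oligodendrocyte markers summed to 26.6 and 31.7 FPKM, with Olig2 above 3/2 at a ratio of 2.11, and neuronal markers to 63.9 and 78.8 FPKM, most of it Tubb3. Fewer cells of a type and less RNA per cell cannot be told apart in such libraries, and the part of these cells in the levels of Cd36, Fabp4 and Plin2 was not tested.

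**Figure D5:**
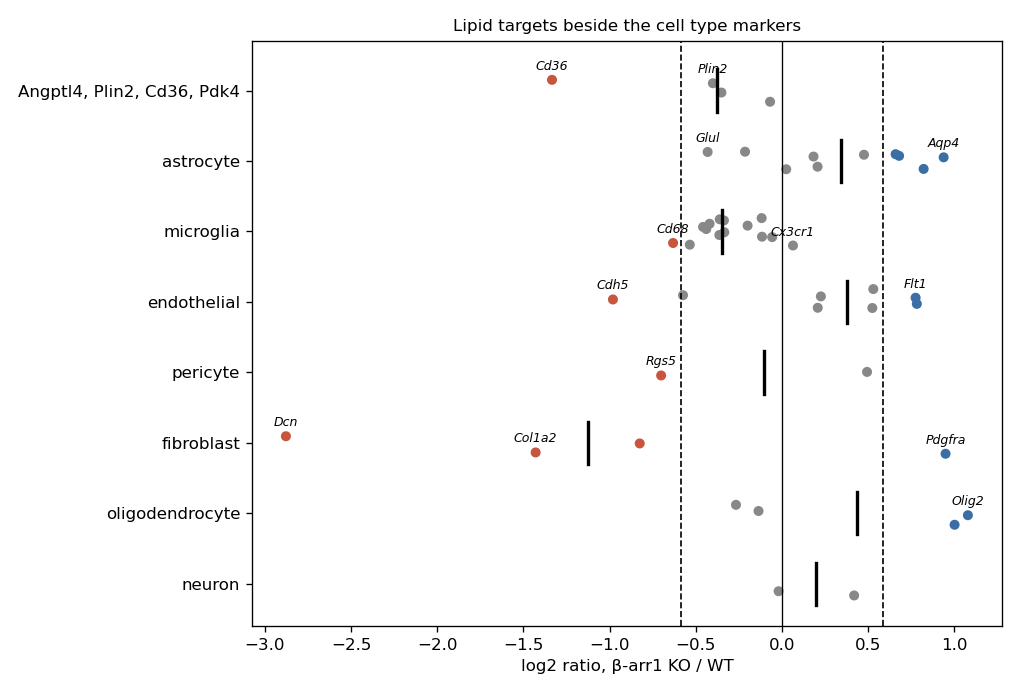
Log2 ratio of β-arr1 KO vs. WT for the 4 lipid targets and for markers of 7 cell types with at least 1 FPKM that were listed in both tables, drawn with the same bars and colours as the plot of the pathway lists. The microglia markers lie between -0.63 and 0.06, Cd36 lies to their left at -1.33, and of the fibroblast markers Dcn and Col1a2 lie farther left than Cd36.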

How the data were processed

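RNA-seq of 1 WT and 1 β-arr1 KO library of cultured DG astrocytes was used. The authors aligned read pairs to mm9 with TopHat (version 1.4.0 in the submitters' processing notes), ran Cufflinks and deposited 1 FPKM value per gene and library. FPKM values are scaled for transcript length and library size. Read counts are not columns of the tables, and genes at 0 are not listed.

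Tables were joined by symbol, keeping the highest row where rows shared a symbol. A gene found in a single table took the value 0 for the missing one, and analysis was limited to genes reaching 1 FPKM in either. No p-value was computed.

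Mapped fragments were estimated from the steps of 1, 2 or 3 fragments among 424 (WT) and 446 (KO) genes under 0.15 FPKM with 1 GENCODE transcript over 1000 bases. In each library 68.6% lay within 5% of a step, with 170 bases taken off the length. Fragments per gene used the longest transcript, and intervals are too narrow where a shorter one is expressed. PCR copies of one molecule are not independent.

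Table starts had 1 added, after which 38.3% (WT) and 38.6% (KO) of matched starts equalled GENCODE. The computation was tested on simulated data, in which the intervals and calls met counting error only. Differences between cultures and unknown transcript lengths were not part of that simulation. The 10 genes and the lists were chosen with earlier results of these data known. Named in each list were genes past the limits with at least 5 FPKM in the higher library (at most 3 at each end) and the 2 highest by mean. Exceptions are Ppargc1a, Nr1h4, Ehhadh, Fabp3, Cidea, G0s2, Cx3cr1, P2ry12, Tmem119, Slc1a2, Acot6, Acsl4, Acsl5, Acsl6, Lum and Plin1, named after their values were seen. Some genes that the rule names are not reported here. Software was matplotlib 3.10.9, scipy 1.17.1, pandas 2.3.3, numpy 2.4.6 and Python 3.11.15.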

Additional observations from a re-analysis of the deposited data

How the results depend on the processing

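The number of genes of the set past the limits was 1 in every alternative tried for it, and the gene was Cd36 throughout. Over all genes, 3969 of 15260 were past the limits with a minimum of 0.1 FPKM and 1179 of 9397 with 5 FPKM. The counts were 1372 of 11622 with 1 FPKM in both libraries and 1163 of 12646 with limits of 2 and 1/2. In the pathway lists, 13 of 113 genes were past them with 1 FPKM in both libraries, beside the 1372 of 11622 over all genes. With limits of 2 and 1/2 there were 9 of 122, beside 1163 of 12646. In these alternatives the construction itself changes which genes are counted. None of the 63 ratios of the set recomputed with 3 rescalings, pseudocounts of 0.1 and 1, summed rows or summed overlapping loci left the counting interval or changed its side of a limit. No locus of the set overlapped another row, so the last of these changed nothing. For the 161 other genes of the lists, no direction past a limit reversed, but with a pseudocount of 1 the calls of Ncoa7, Nr1h4, Ehhadh, Cidea, G0s2, Slc1a2, Rgs5 and Sox10 were lost, and Cldn5 (an endothelial marker) went below 2/3 with 2 of the rescalings, at 0.663 and 0.660. With a median or shortest coding transcript length, none of the 36 interval ends moved across 1. Leaving out a replicate was not possible with 1 library per genotype, and depth limits Ppara and Rxrg most. No paired analysis was possible because each genotype has 1 library.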
